A study of Mus musculus with 24 samples.

Results

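Annexins and the S100 proteins that bind them were followed at the transcript level in cultured mouse oligodendrocytes, the myelin-forming cells of the brain, with and without ethanol. The set holds 10 genes, Anxa1, Anxa2, Anxa3, Anxa4, Anxa5, Anxa6, Anxa7, S100a6, S100a10 and S100a11, out of 55359 genes in the count table. It was chosen because Anxa2 lay on opposite sides of its controls at the 2 ethanol concentrations, and the other 9 genes are annexins and S100 genes listed with it. The members were chosen with earlier results of these data known. Anxa11 and other S100 genes lie outside the set and are given below. Values of Anxa2, which chose the set, are given as a description, with no test.

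Annexins are soluble proteins that bind acidic phospholipids of the cell's membranes when calcium rises, and they take part in membrane repair, in vesicle traffic and in the link between membrane and actin. S100 proteins are small EF-hand proteins that work as dimers, and some of them hold annexins together in pairs. S100a10 joins Anxa2 into a heterotetramer at the inner face of the plasma membrane and is unusual in the family because it does not bind calcium, while S100a11 binds Anxa1 and S100a6, also called calcyclin, binds several annexins and the ubiquitin-ligase adaptor Cacybp. In the brain many of these transcripts are known from astrocytes, microglia and vessel-associated cells as well as from oligodendrocytes.

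The cells came from the cortex of C57Bl6J pups at postnatal day 5 to 7, were sorted with beads against O4, a surface antigen of immature oligodendrocytes, and were differentiated for 3 days with triiodothyronine. They were then kept for 3 days without ethanol or with 30 mM ethanol in experiment 1, and without ethanol or with 10 mM ethanol in experiment 2, with 6 wells in each of the 4 groups. The control plates were kept in an incubator of their own, and ethanol cannot be told apart from incubator. Each concentration was used in 1 experiment, which the labels also give as a batch, and concentration cannot be told apart from experiment. RNA was read by 3′ tag sequencing, which counts 1 end of each transcript. The labels call the wells biological replicates. They do not say whether the wells of a group came from separate litters, so p-values measure the spread between wells.

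Total counts ran from 1184609 to 1817028 per well, and 3 counts, taken as the floor of detection, were worth 1.69 to 2.51 CPM, the counts scaled to the size of the library. Summed levels of marker genes were used to check the label of the cells. The 10 oligodendrocyte markers were all detected in all 4 groups, at 6994 to 16305 CPM together. The 9 astrocyte markers summed to 3600 to 6412 CPM in the same wells. Microglia markers, 12 genes, summed to 230 to 403 CPM in experiment 1 and to 2795 to 3495 CPM in experiment 2. The cultures thus held transcripts of other cell types beside those of oligodendrocytes. In RNA from whole wells, fewer cells of a type and less RNA per cell cannot be told apart. A pair of wells in experiment 1 stood apart and is followed below: 30 mM replicate 1, with the highest oligodendrocyte marker sum, 16305 CPM against 9454 to 9839 CPM in its group, and control replicate 6, with the highest Anxa1 and S100a6 of all wells.

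Of the 10 genes, 7 had a promoter in the RefSeq table used here (build GRCm38.p6), and the stretches of 250 bases before the annotated start are shown for 3 of them. Anxa2 is shown because it defines the set. S100a11 and S100a6 are shown because their wells did not overlap at 30 mM. Capitals mark the AP-1 motif, TGANTCA, searched on both strands, where N is any base.

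Anxa2 promoter, chr9:69453433-69453682, plus strand: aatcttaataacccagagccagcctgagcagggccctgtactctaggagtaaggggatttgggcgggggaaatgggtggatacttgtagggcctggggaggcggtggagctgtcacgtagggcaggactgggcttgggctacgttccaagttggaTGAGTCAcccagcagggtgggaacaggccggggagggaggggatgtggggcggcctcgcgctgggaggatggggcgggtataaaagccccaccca
S100a11 promoter, chr3:93520246-93520495, plus strand: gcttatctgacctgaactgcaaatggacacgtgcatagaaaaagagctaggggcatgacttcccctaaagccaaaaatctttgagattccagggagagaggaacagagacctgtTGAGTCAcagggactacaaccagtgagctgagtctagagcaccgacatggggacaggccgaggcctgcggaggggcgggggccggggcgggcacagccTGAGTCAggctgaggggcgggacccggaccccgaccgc
S100a6 promoter, chr3:90612644-90612893, plus strand: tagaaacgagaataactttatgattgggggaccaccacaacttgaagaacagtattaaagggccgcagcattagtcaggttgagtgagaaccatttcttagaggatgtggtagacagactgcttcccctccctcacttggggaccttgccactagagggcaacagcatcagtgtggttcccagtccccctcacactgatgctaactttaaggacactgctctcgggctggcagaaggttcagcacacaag

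The AP-1 motif was found once in the Anxa2 window, 95 bases before the start, and at 2 places in the S100a11 window, 136 and 38 bases before the start. No match lay in the S100a6 window. Of all 32851 RefSeq promoters, taken from 250 bases before to 50 bases after the start, 7.81% held the motif. Of the 9 promoters of members, 2 held it, those of Anxa2 and S100a11. A search for GGAATG, the core bound by TEAD factors, or its reverse complement found it in 14.7% of promoters, and among the members in that of Anxa1, 236 bases before the start. The CArG box, the element bound by serum response factor, was found in 1.63% of promoters, and among the members in that of Anxa5, 26 bases after the start. These matches describe letters in a window and show no binding.

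The first pair was Anxa2 and S100a10. Anxa2 (ENSMUSG00000032231), which binds membrane, actin and plasminogen, was measured at 218 CPM in the lowest, 247 CPM in the median and 274 CPM in the highest control well of experiment 1. At 30 mM these values were 151, 199 and 238 CPM. In experiment 2 they were 122, 133 and 142 CPM in controls and 137, 159 and 179 CPM at 10 mM. Most 30 mM wells thus lay below the controls of experiment 1 and most 10 mM wells above those of experiment 2, but the groups overlapped: 30 mM replicates 1 and 2 reached the control range, with 231 and 238 CPM, and 10 mM replicate 5, with 137 CPM, lay inside its control range. The mean was 245 ± 20.7 CPM in controls and 200 ± 32.4 CPM at 30 mM (SD, n = 6 each), a log2 fold change of -0.26 (SE 0.0782), or -16.8%. It was 132 ± 7.92 CPM in controls and 160 ± 15.1 CPM at 10 mM (SD, n = 6 each), a log2 fold change of 0.27 (SE 0.071), or 20.6%. The changes at both concentrations were of like size, and the change at 30 mM minus that at 10 mM was -0.55 (SE 0.111). These values chose the set and carry no test.

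S100a10 (ENSMUSG00000041959), the partner that holds Anxa2 in its heterotetramer, fell at 30 mM and was level at 10 mM. The control wells of experiment 1 had 138 CPM at the lowest, 148 CPM at the median and 165 CPM at the highest, and the 30 mM wells had 101, 106 and 128 CPM. All 6 ethanol wells lay below all 6 control wells. The mean went from 149 ± 11.7 to 111 ± 11.0 CPM (SD, n = 6 each), a log2 fold change of -0.39 (edgeR, SE 0.0788, adjusted p = 0.000518). In experiment 2 the means were 100.3 ± 11.6 CPM in controls and 100.3 ± 5.79 CPM at 10 mM (SD, n = 6 each). The log2 fold change was -0.0045, with a 95% interval from -0.16 to 0.15 (edgeR adjusted p = 0.994).

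Counts of Anxa2 per count of S100a10 were formed within each well. The ratio was 1.64 ± 0.134 in experiment 1 controls and 1.79 ± 0.173 at 30 mM, against 1.33 ± 0.121 in experiment 2 controls and 1.60 ± 0.160 at 10 mM (SD, n = 6 each). At 10 mM, 5 of the 6 wells lay above the highest control ratio, 1.47, and replicate 5 had 1.29. At 30 mM, 5 of the 6 wells had 1.77 or more, as did 1 control well, and replicate 6 had 1.46, below the lowest control at 1.47. The ratio contains Anxa2 and is a description only. Within groups of 6 wells, Pearson's r between log2 CPM of both genes was 0.507 in experiment 1 controls, 0.828 at 30 mM, 0.616 in experiment 2 controls and 0.0780 at 10 mM. Without the 2 wells farthest from the median of Anxa2 these values were -0.146, 0.946, -0.920 and 0.811. The sign or the size of r thus changed with those wells in all groups but 30 mM, and r is a description only.

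**Figure D1:**
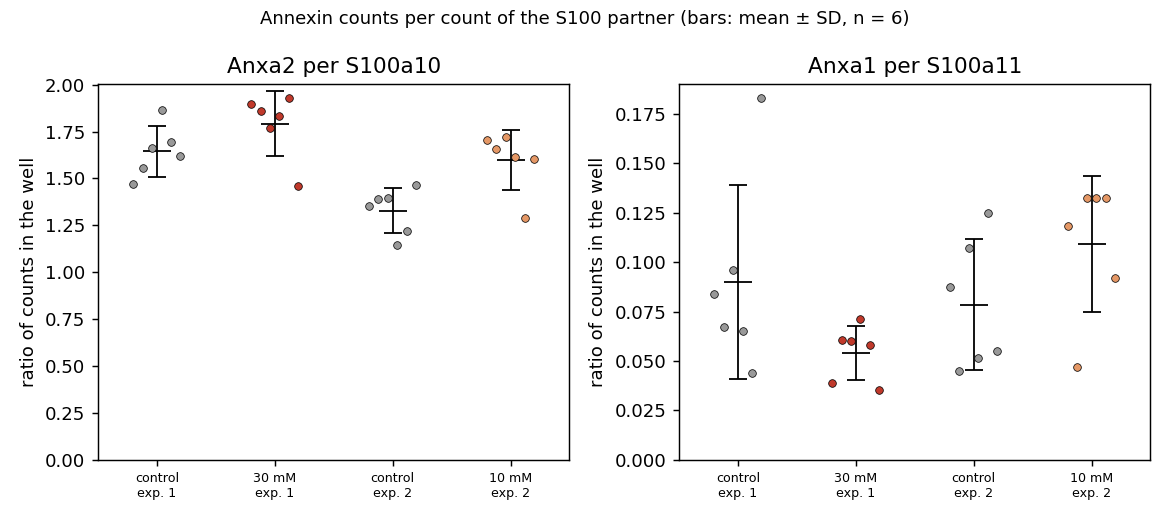
Counts of Anxa2 per count of S100a10 (left) and of Anxa1 per count of S100a11 (right) in each well, by group. Points are wells and bars show mean ± SD, n = 6. Anxa2 per S100a10 was 1.60 ± 0.160 at 10 mM and 1.33 ± 0.121 in its controls, with 10 mM replicate 5 inside the control range.

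The second pair was Anxa1 and S100a11. Anxa1 (ENSMUSG00000024659), an anti-inflammatory ligand of formyl peptide receptors once secreted, had 7 to 71 counts per well. The control wells of experiment 1 had 11.4 CPM at the lowest, 20.7 CPM at the median and 55.9 CPM at the highest, and the 30 mM wells had 5.54, 10.0 and 12.3 CPM. The groups met only at control replicate 5, with 11.4 CPM. The mean went from 25.8 ± 15.9 to 9.31 ± 2.96 CPM (SD, n = 6 each), and Anxa1 fell by 1.41 on the log2 scale (edgeR, SE 0.277, adjusted p = 0.00042). The highest well, control replicate 6, carried part of this: without it the log2 fold change was -1.05 (edgeR adjusted p = 0.00262), and without both this well and 30 mM replicate 1 it was -0.93 (edgeR adjusted p = 0.00462). Leaving out both together was chosen after the data were seen. All 6 control wells but 4 of the 6 ethanol wells reached the level required by the low-count filter. A long noncoding RNA on the opposite strand, 1500015L24Rik, overlaps Anxa1 and had 221 counts over all wells against 507 for Anxa1. The use of strand in counting is not given in the sources used here, so reads of the pair cannot be told apart. At 10 mM the mean was 13.05 ± 3.65 CPM and in controls 10.8 ± 4.08 CPM (SD, n = 6 each), a log2 fold change of 0.29 with a 95% interval from -0.15 to 0.72 (edgeR adjusted p = 0.717).

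S100a11 (ENSMUSG00000027907), which binds the N-terminus of Anxa1, had the smallest p of the set at 30 mM. Its wells ran from 249 over a median of 280 to 309 CPM in the controls of experiment 1 and from 153 over 164 to 197 CPM at 30 mM. No ethanol well reached the control range. The mean went from 280 ± 29.1 to 170 ± 18.4 CPM (SD, n = 6 each), a fall of 38.0%: S100a11 fell by 0.69 on the log2 scale (edgeR, SE 0.0751, adjusted p = 5.8e-09). At 10 mM the wells ran from 101 over 121 to 143 CPM and in controls from 130 over 140 to 149 CPM, so that they overlapped. The log2 fold change was -0.19, with a 95% interval from -0.34 to -0.048. It was the only gene of the 9 with an unadjusted p under 0.05 there (0.00969), and it did not pass after adjustment (edgeR adjusted p = 0.284). A processed pseudogene, S100a11-ps, had 15 counts over all wells. Counts of Anxa1 per count of S100a11 were 0.0899 ± 0.0489 in experiment 1 controls, 0.0541 ± 0.0139 at 30 mM, 0.0785 ± 0.0330 in experiment 2 controls and 0.109 ± 0.0344 at 10 mM (SD, n = 6 each), and the groups overlapped. The correlation of both genes within groups had no common sign, and none passed. In the controls and ethanol wells of experiment 1 r was 0.665 and 0.762 (exact two-sided permutation p = 0.174 and 0.117, adjusted p = 0.313 and 0.312 over 8 relations, 4 of them with Anxa2). In those of experiment 2 it was -0.788 and -0.555 (exact two-sided permutation p = 0.0694 and 0.258, adjusted p = 0.278 and 0.313). Spearman's rho was 0.429, 0.657, -0.829 and -0.257 in the same order (exact two-sided permutation p = 0.419, 0.175, 0.0583 and 0.658, adjusted p = 0.559, 0.467, 0.233 and 0.658). Without the 2 wells farthest from the median of Anxa1, r was 0.614, 0.774, -0.458 and 0.832, so that its sign at 10 mM rested on those wells.

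S100a6 (ENSMUSG00000001025), a calcium sensor of growing cells that binds annexins and Cacybp, varied widely among the controls of experiment 1. These wells had 335 CPM at the lowest, 428 CPM at the median and 665 CPM at the highest, and the 30 mM wells had 261, 284 and 317 CPM. All ethanol wells lay below all controls and close together. The mean went from 468 ± 124 to 284 ± 18.5 CPM (SD, n = 6 each), and S100a6 fell by 0.69 on the log2 scale (edgeR, SE 0.101, adjusted p = 3.4e-06). Without control replicate 6, the highest well, the log2 fold change was -0.56 (edgeR adjusted p = 5.32e-06). At 10 mM S100a6 had 282 ± 26.0 CPM and in its controls 302 ± 22.8 CPM (SD, n = 6 each), a log2 fold change of -0.10 with a 95% interval from -0.22 to 0.020 (edgeR adjusted p = 0.603). The level at 30 mM was thus near that of both groups of experiment 2, and the controls of experiment 1 were the group that stood higher. In RefSeq S100a6 neighbours S100a5 and S100a4 on chromosome 3, and S100a10 neighbours S100a11. S100a4, with a log2 fold change of 0.02 at 30 mM (edgeR adjusted p = 0.955), did not share the change of its neighbour.

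Among annexins outside these pairs, Anxa3 (ENSMUSG00000029484) stood apart by its pattern. Anxa3 binds phospholipids and is known in the brain from microglia and vessels. Its wells ran from 103 over 128 to 149 CPM in the controls of experiment 1 and from 67.6 over 75.1 to 97.3 CPM at 30 mM, with no overlap. The mean went from 128 ± 17.6 to 78.4 ± 11.1 CPM (SD, n = 6 each), and Anxa3 fell by 0.69 on the log2 scale (edgeR, SE 0.0953, adjusted p = 1.35e-06). The other 3 groups lay together, with 127 ± 8.51 CPM in experiment 2 controls and 122 ± 12.6 CPM at 10 mM (SD, n = 6 each). The log2 fold change at 10 mM was -0.07, with a 95% interval from -0.22 to 0.079 (edgeR adjusted p = 0.823). Anxa3 was thus low in the 30 mM wells alone of the 4 groups.

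Anxa5 and Anxa6 fell less. Anxa5 (ENSMUSG00000027712), the phosphatidylserine-binding protein used to stain dying cells, ran from 220 over 237 to 254 CPM in experiment 1 controls and from 172 over 192 to 223 CPM at 30 mM, where only replicate 2 reached the control range. It fell by 0.27 on the log2 scale (edgeR, SE 0.0695, adjusted p = 0.00788), or by 17.0%. Anxa6 (ENSMUSG00000018340), an annexin with a doubled core that links membrane to actin and to cholesterol traffic, ran from 215 over 271 to 284 CPM in controls and from 185 over 213 to 226 CPM at 30 mM. It fell by 0.30 (edgeR, SE 0.0693, adjusted p = 0.00327), or by 18.5%, and the groups met only because control replicate 6 had 215 CPM, while the other controls had 259 CPM or more. At 10 mM Anxa5 had 136 ± 15.1 CPM against 149 ± 10.9 CPM in controls, and Anxa6 had 336 ± 21.0 CPM against 321 ± 7.75 CPM (SD, n = 6 each). Their log2 fold changes were -0.13, with a 95% interval from -0.27 to 0.014, and 0.06, with a 95% interval from -0.051 to 0.17 (edgeR adjusted p = 0.563 and 0.78).

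Anxa4 and Anxa7 did not pass the test at either concentration. Anxa4 (ENSMUSG00000029994), an annexin best known from epithelia, was scarce, with 12.5 ± 0.877 CPM in experiment 1 controls and 11.2 ± 3.29 CPM at 30 mM (SD, n = 6 each). The log2 fold change was -0.13 (edgeR adjusted p = 0.777), and its 95% interval, from -0.59 to 0.33, does not exclude a fall of the size of that of Anxa5. Anxa7 (ENSMUSG00000021814), also called synexin and known for calcium-dependent membrane fusion, had 74.6 ± 4.06 CPM in controls and 63.5 ± 5.59 CPM at 30 mM (SD, n = 6 each). Its log2 fold change was -0.21 (edgeR adjusted p = 0.159), with a 95% interval from -0.39 to -0.021. At 10 mM the log2 fold changes were -0.0032 for Anxa4, with a 95% interval from -0.33 to 0.32, and -0.10 for Anxa7, with a 95% interval from -0.28 to 0.091 (edgeR adjusted p = 0.998 and 0.797).

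**Figure D2:**
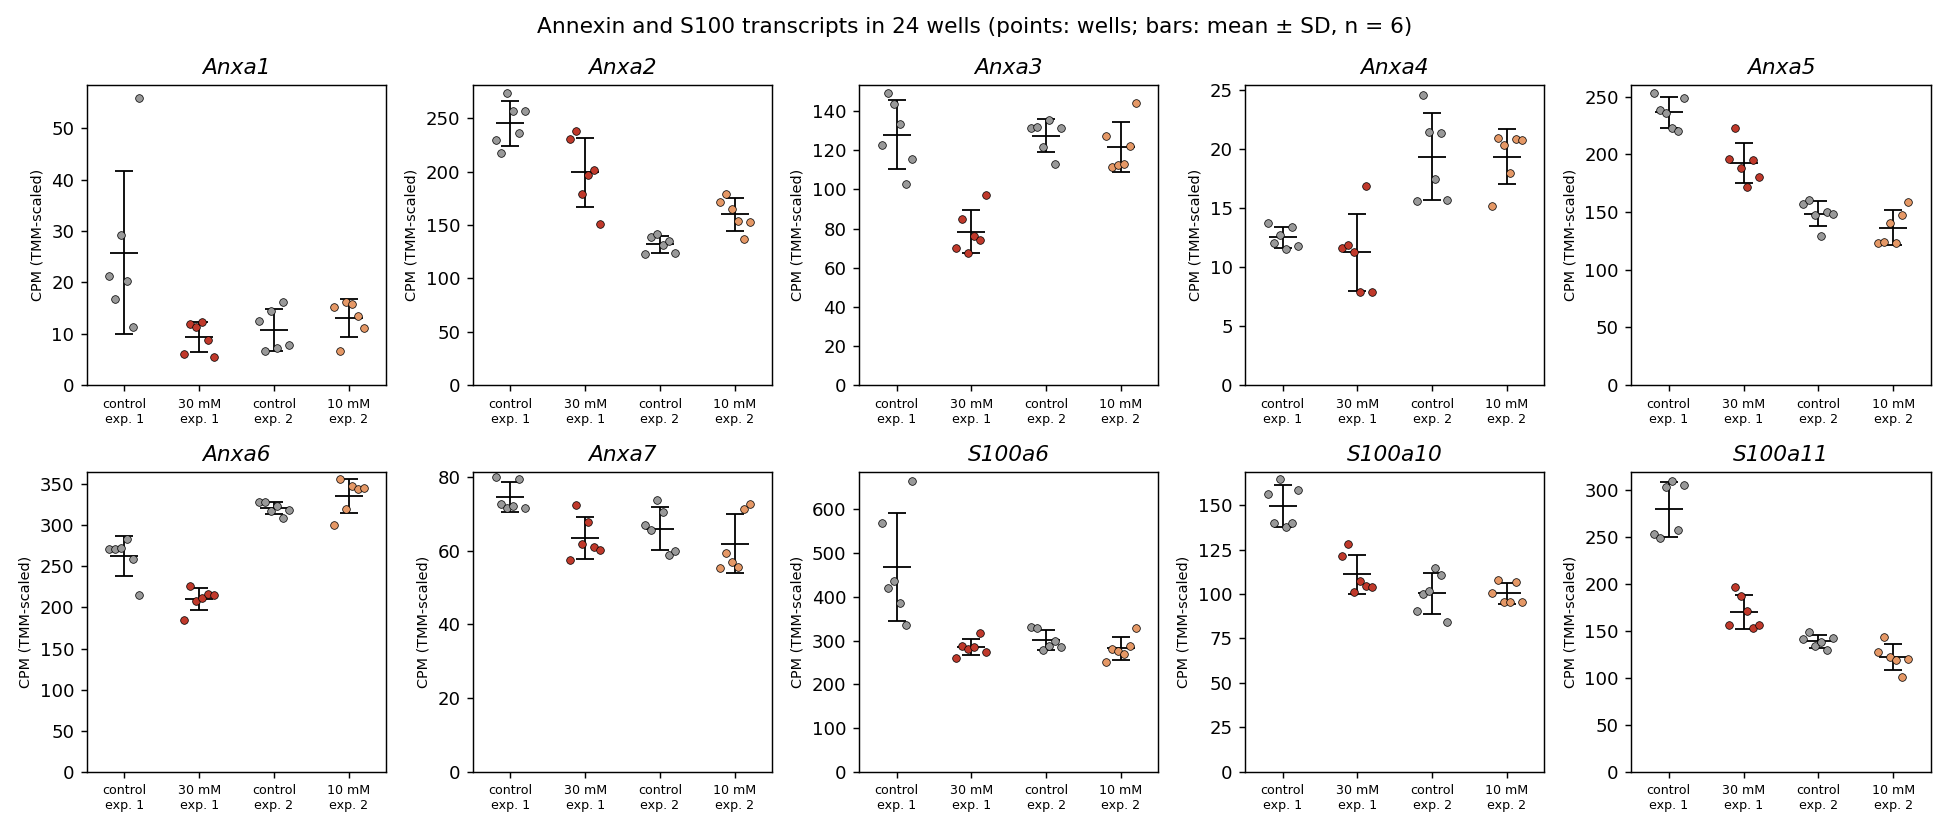
Level of each of the 10 genes in each of the 24 wells, in CPM on a linear axis from 0, by group. Points are wells and bars show mean ± SD, n = 6. For Anxa3, S100a6, S100a10 and S100a11 all 30 mM wells lie below all experiment 1 controls, and at 10 mM the wells of all 10 genes overlap their controls.

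Counted together, 7 of the 9 genes other than Anxa2 passed at 30 mM, all of them lower, where 9.67% of the 13235 genes tested passed and 6.65% passed as lower. The members were chosen with earlier results of these data known, so the counts here and below describe a chosen set. All 10 genes passed the low-count filter in every comparison. The count of 7 includes Anxa1, which at 30 mM reached the filter level in all 6 control wells but in 4 of the 6 ethanol wells. All 9 log2 fold changes were below 0, as were 46% of those of all genes, and their median was -0.39 against 0.02 over all genes. Wells of 4 of the 9 genes lay all below the controls, which held for 3.35% of genes tested. At 10 mM, 0 of the 9 genes passed by edgeR, where 0.657% of 13538 genes did, and 1 had an unadjusted p under 0.05. DESeq2 and limma voom also called 0, though DESeq2 gave Anxa1 and Anxa4 no adjusted p. Their median log2 fold change was -0.07, against -0.0023 over all genes. The wells of all 9 genes overlapped their controls at 10 mM, where 0.842% of genes tested did not overlap.

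**Figure D3:**
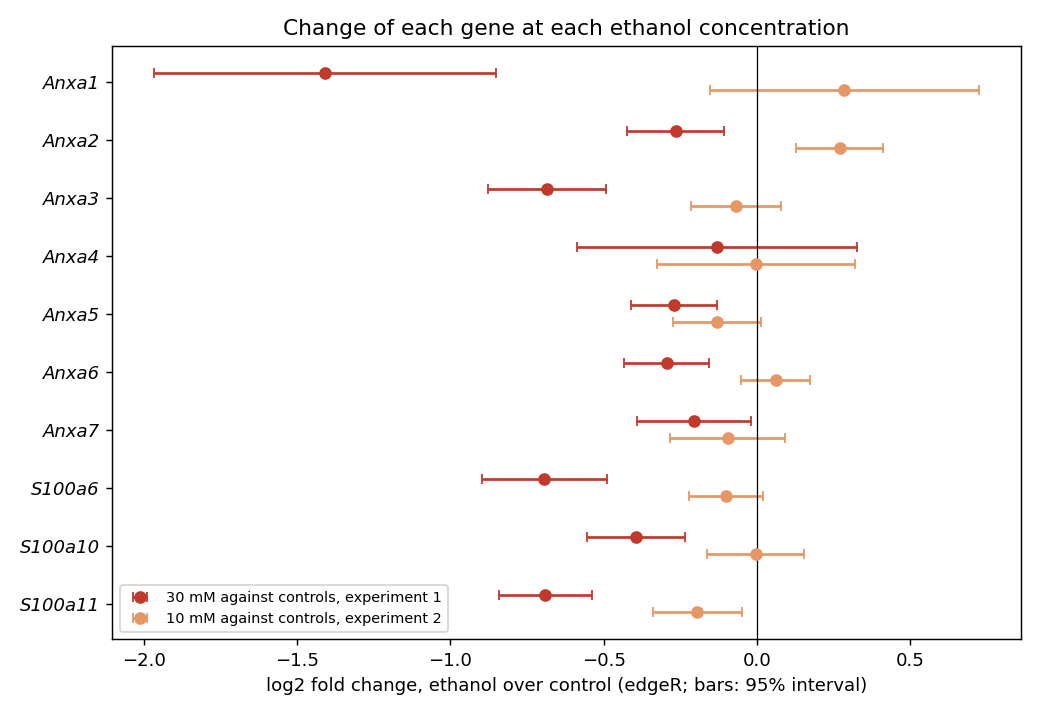
Log2 fold change of each gene, ethanol over control, at 30 mM (red) and 10 mM (orange), from edgeR. Points are estimates and bars are 95% intervals. Anxa2 was chosen on these changes, so its points and bars are a description and no test. At 30 mM all points lie left of 0, from -1.41 for Anxa1 to -0.13 for Anxa4, and at 10 mM the points lie between -0.19 and 0.29.

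Whether a gene responded differently in the 2 experiments was tested over all 24 wells, as the change at 30 mM minus the change at 10 mM. Of the 9 genes, 6 passed, all with the lower value at 30 mM, where 3.28% of 14655 genes tested passed and 2.4% passed as lower. The difference was -1.70 for Anxa1 (edgeR, SE 0.375, adjusted p = 0.00333), -0.63 for Anxa3 (edgeR, SE 0.124, adjusted p = 0.00084) and -0.60 for S100a6 (edgeR, SE 0.124, adjusted p = 0.00158). It was -0.51 for S100a11 (edgeR adjusted p = 0.00235), -0.40 for S100a10 (edgeR adjusted p = 0.0324) and -0.37 for Anxa6 (edgeR adjusted p = 0.0107). For Anxa1 only the experiment 1 controls reached the filter level in all 6 wells. For Anxa5, which fell at 30 mM, the difference was -0.15 with a 95% interval from -0.36 to 0.055 (edgeR adjusted p = 0.465), so its changes at 30 and 10 mM were not shown to differ. Those of Anxa4 and Anxa7 were -0.14 and -0.12 (edgeR adjusted p = 0.831 and 0.677). The call for S100a10 was the least firm: its adjusted p went above 0.05, to at most 0.0694, when any 1 of 9 wells was left out, namely experiment 1 control replicate 1 or 3, experiment 2 control replicate 1 or 6, 10 mM replicate 1, 2 or 5, or 30 mM replicate 3 or 6.

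The control groups of both experiments were compared because no ethanol enters that comparison. These control wells also serve in the ethanol comparisons, so the values stand side by side and are not independent of them. The controls differed widely: 43.6% of 13479 genes tested passed. Of the 9 genes other than Anxa2, 7 passed, 5 higher and 2 lower in experiment 1 (21.3% and 22.3% of all genes). Anxa2 itself was at 245 CPM in experiment 1 and 132 CPM in experiment 2, a log2 fold change of 0.89 (SE 0.068), and the wells did not overlap. S100a11 was higher in experiment 1 by 1.00 (edgeR, SE 0.0677, adjusted p = 7.47e-23), Anxa5 by 0.66 (edgeR adjusted p = 4.27e-14), S100a6 by 0.62 (edgeR adjusted p = 4.86e-10) and S100a10 by 0.57 (edgeR adjusted p = 2.34e-09), each with no overlap of wells. Anxa1 was higher by 1.20 (edgeR adjusted p = 1.27e-05), or by 0.86 without control replicate 6, with overlapping wells. Anxa4 and Anxa6 were lower in experiment 1, with log2 fold changes of -0.63 and -0.30 (edgeR adjusted p = 0.00355 and 3.39e-05), again with no overlap. Anxa3 and Anxa7 had log2 fold changes of 0.0037 and 0.17 (edgeR adjusted p = 0.975 and 0.118). Wells lay apart for 6 of these 9 genes, 4 above and 2 below, where 18.6% of genes tested did, 9.94% above and 8.67% below. The median log2 fold change of the 9 genes was 0.57, against -0.0084 over all genes.

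In the order of group means, both groups of experiment 1 stood above both of experiment 2 for Anxa2, Anxa5, S100a10 and S100a11, and below them for Anxa4 and Anxa6. Neighbours in that order often overlapped. For Anxa2 and Anxa1 each group overlapped the next. For S100a11 the experiment 1 controls, the 30 mM wells and the experiment 2 controls followed each other without overlap, and only the last pair, experiment 2 controls and 10 mM, overlapped. For Anxa5 the 30 mM wells still lay above the controls of experiment 2, at 172 CPM or more against 160 CPM or less.

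Marker genes of other cell types moved in the same comparisons, and their part in the results was not tested. At 30 mM the summed level of 10 mural cell markers was 163 to 294 CPM against 509 to 665 CPM in controls. Of 7 tested, 3 fell, the contractile genes Acta2, Tagln and Cnn1, while the other 4, among them Rgs5 and Pdgfrb, did not pass. The 6 fibroblast markers summed to 202 to 265 CPM against 353 to 583 CPM, and 4 of 5 tested fell. Oligodendrocyte markers, summed, lay at 9454 to 16305 CPM against 7414 to 9165 CPM, with 8 of 10 higher, and astrocyte markers at 4916 to 6412 CPM against 3600 to 4568 CPM, with 4 of 8 tested higher. Of all 13235 genes tested at 30 mM, 880 passed as lower and 400 as higher. At 10 mM the mural sum was 93.8 to 127 CPM against 111 to 144 CPM, and the fibroblast sum 500.4 to 559 CPM against 496 to 678 CPM, with 2 of 5 fibroblast markers lower. The oligodendrocyte sum at 10 mM was 8457 to 9281 CPM against 6994 to 8890 CPM, with 3 of 10 markers higher, where 0.657% of all genes passed. The astrocyte sum was 4033 to 4792 CPM against 4218 to 4531 CPM, and 0 of 8 astrocyte markers tested passed. Precursor, endothelial and neuron marker sums overlapped between 30 mM and controls, at 600.1 to 772, 91.7 to 115 and 104 to 132 CPM against 679 to 746, 80.9 to 107 and 105 to 145 CPM. Of 4 neuron markers tested at 30 mM 1 was lower, Stmn2 with -0.71 (edgeR adjusted p = 1.27e-05). Of 8 microglia markers tested 1 was higher, Cx3cr1 with 1.07 (edgeR adjusted p = 0.0124). At 10 mM Stmn2 had -0.40 and Cx3cr1 0.29 (edgeR adjusted p = 0.0291 and 0.0357). Control replicate 6 of experiment 1, highest in Anxa1 and S100a6, had the lowest sums of its group in most lists. These were 7414 CPM for oligodendrocyte, 679 for precursor, 3600 for astrocyte, 238 for microglia, 509 for mural and 353 for fibroblast markers. Its endothelial and neuron sums, 96.8 and 140 CPM, lay inside the range of its group. Between the controls, 11 of 11 microglia markers tested were lower in experiment 1, at 238 to 403 CPM in sum against 2795 to 3311 CPM. The mural sum was 509 to 665 CPM against 111 to 144 CPM. Of 8 mural markers tested there, 3 were higher, again Acta2, Tagln and Cnn1, and 5 did not pass. Of 5 fibroblast markers tested, 4 were lower in experiment 1, and the sums overlapped, at 353 to 583 CPM against 496 to 678 CPM. Over all genes 43.6% passed. The share of counts from mitochondrial genes moved too, at 3.59% to 4.79% at 30 mM against 2.94% to 3.82% in controls, and between the controls at 2.94% to 3.82% in experiment 1 against 2.06% to 2.39% in experiment 2. At 10 mM it was 1.81% to 2.37%. Its part was not tested either. Of these lists no gene was at 0 in all wells, while Dpt of the fibroblasts and Cldn5 of the endothelium were under 3 counts in every well.

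**Figure D4:**
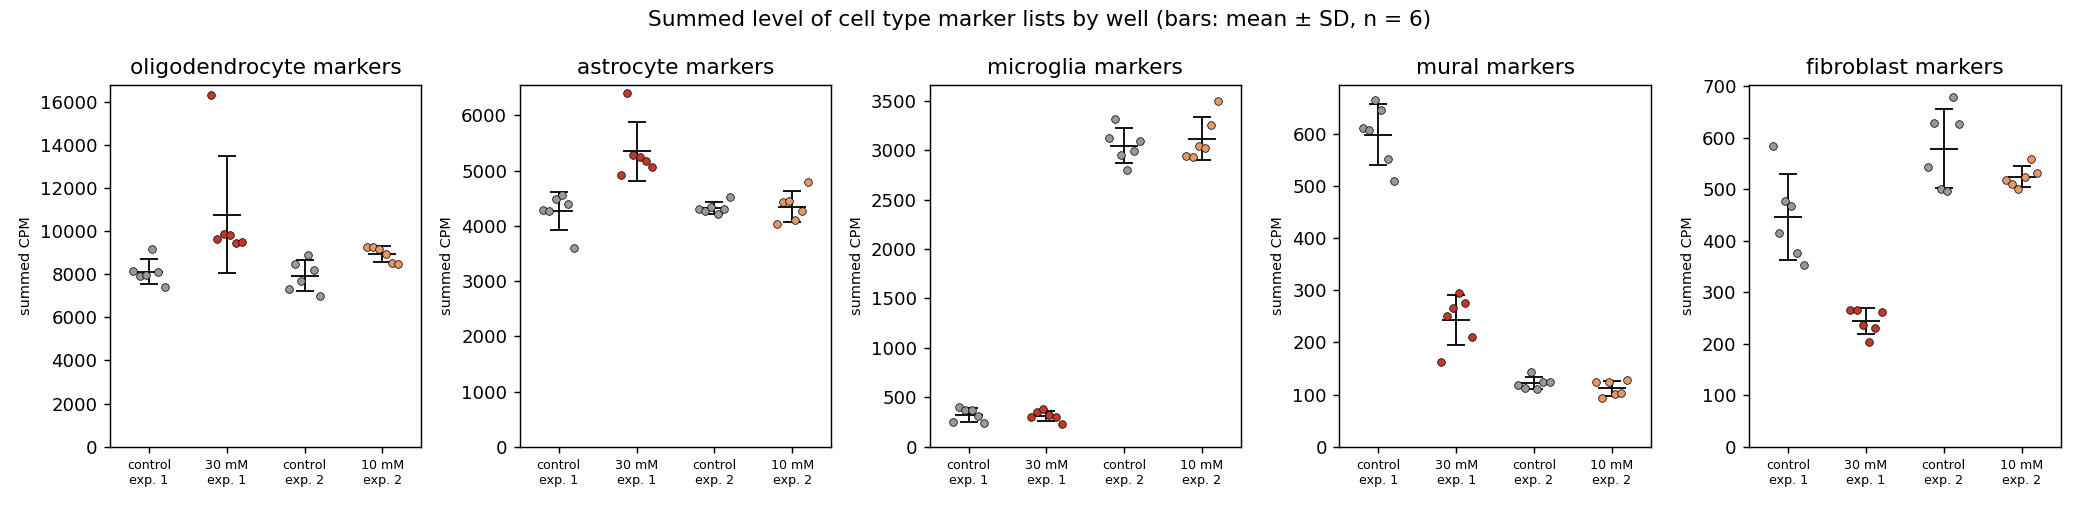
Summed CPM of 5 marker lists in each well, by group. Points are wells and bars show mean ± SD, n = 6. The mural sum was 509 to 665 CPM in experiment 1 controls and 163 to 294 CPM at 30 mM, and the microglia sum was 230 to 403 CPM in experiment 1 and 2795 to 3495 CPM in experiment 2.

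Genes that work with annexins were taken from 5 lists holding 50 genes. At 30 mM 27 could be tested, of which 3 were higher and 6 lower, and at 10 mM 0 of 29 passed by edgeR, DESeq2 or limma voom, with 2 at an unadjusted edgeR p under 0.05. Any gene without an adjusted p in DESeq2 was counted there as not passed. The share called at 30 mM over all genes was given above as 9.67%. The only other annexin with enough counts, Anxa11, which binds ALG-2 and S100a6, fell from 24.4 to 15.3 CPM, by 0.67 on the log2 scale (edgeR, SE 0.182, adjusted p = 0.0123). Its difference between concentrations was -0.81 and did not pass (edgeR adjusted p = 0.0668), but it did under 7 of 30 alternatives. Anxa10 and Anxa13 stayed under 3 counts in every well. Of 13 other S100 genes 5 were tested. S100a1 alone passed, with a log2 fold change of 0.21 (edgeR adjusted p = 0.0356), and it missed the threshold with no low-count filter (adjusted p = 0.249) and when experiment 1 control replicate 2, 3, 4 or 6 or 30 mM replicate 2, 4, 5 or 6 was left out. S100b, the abundant S100 of glia, had -0.02 (edgeR adjusted p = 0.886), and S100a13 and S100a16 had 0.17 and 0.13 (edgeR adjusted p = 0.154 and 0.241). S100a9 had 0 counts in all wells, and S100a5 stayed under 3 counts.

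The membrane repair list had the largest changes among these genes. Of 9 tested at 30 mM, 4 fell. Dysf, or dysferlin, which mediates resealing of torn plasma membrane together with annexins, went from 34.7 to 16.1 CPM, by -1.08 on the log2 scale (edgeR, SE 0.16, adjusted p = 4.4e-06). Its relative Myof, or myoferlin, had -0.94 (edgeR, SE 0.188, adjusted p = 0.000509). The caveolar genes Cavin1 and Ehd2 had -0.62 (edgeR, SE 0.0822, adjusted p = 4.63e-07) and -0.61 (edgeR, SE 0.169, adjusted p = 0.0154), while Cav1 had -0.37 (edgeR adjusted p = 0.0592). The calpain and ESCRT genes of the list, Capn2, Capns1, Pdcd6ip and Chmp4b, lay between -0.052 and -0.023. For the difference between the concentrations Cavin1 passed, with -0.50 (edgeR adjusted p = 0.00546). Dysf and Myof had larger estimates, -0.78 and -0.72, and did not pass (edgeR adjusted p = 0.065 and 0.1). They did pass without 1 well: Dysf without experiment 1 control replicate 1, 10 mM replicate 4 or 30 mM replicate 2 (adjusted p = 0.0439, 0.0474 and 0.0318), and Myof without experiment 1 control replicate 5 or 30 mM replicate 2 (adjusted p = 0.0459 and 0.0302).

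Among binding partners, Ahnak, a giant scaffold that binds the Anxa2 and S100a10 complex, fell from 208 to 145 CPM, by 0.50 on the log2 scale (edgeR, SE 0.0852, adjusted p = 5.72e-05). Its change at 10 mM was -0.20 (edgeR adjusted p = 0.311). Its difference between concentrations was -0.31 (edgeR adjusted p = 0.147), and this passed only without 30 mM replicate 2 (adjusted p = 0.0212). Ctsb, the protease cathepsin B that the complex can hold at the cell surface, rose by 0.26 (edgeR adjusted p = 0.0047), a call lost with no low-count filter (adjusted p = 0.0765). Cacybp, Sugt1, Pdcd6 and Sri, all binding partners of S100 proteins or annexins, lay between -0.045 and -0.0041, and none passed. Of the plasminogen system, which the Anxa2 complex promotes at the surface, 4 of 7 genes were tested. Serpine2, an inhibitor of plasminogen activators, rose by 0.31 (edgeR, SE 0.0568, adjusted p = 0.000126). The activator Plat had -0.0099 (edgeR adjusted p = 0.962), and Plg itself, the plasminogen gene, stayed under 3 counts, as did Serpinb2 and Otof. For the difference between concentrations 30 of the 50 genes were tested and 3 passed, where 3.28% of all genes did: Cavin1, Serpine2 with 0.32 (edgeR adjusted p = 0.0115) and Ctsb with 0.30 (edgeR adjusted p = 0.0304). This count was 5 without 30 mM replicate 2 and 1 without experiment 2 control replicate 5. Between the controls 19 of 28 tested genes passed, 13 higher and 6 lower in experiment 1, where 43.6% of all genes tested passed. Ahnak2 was not analysed here.

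**Figure D5:**
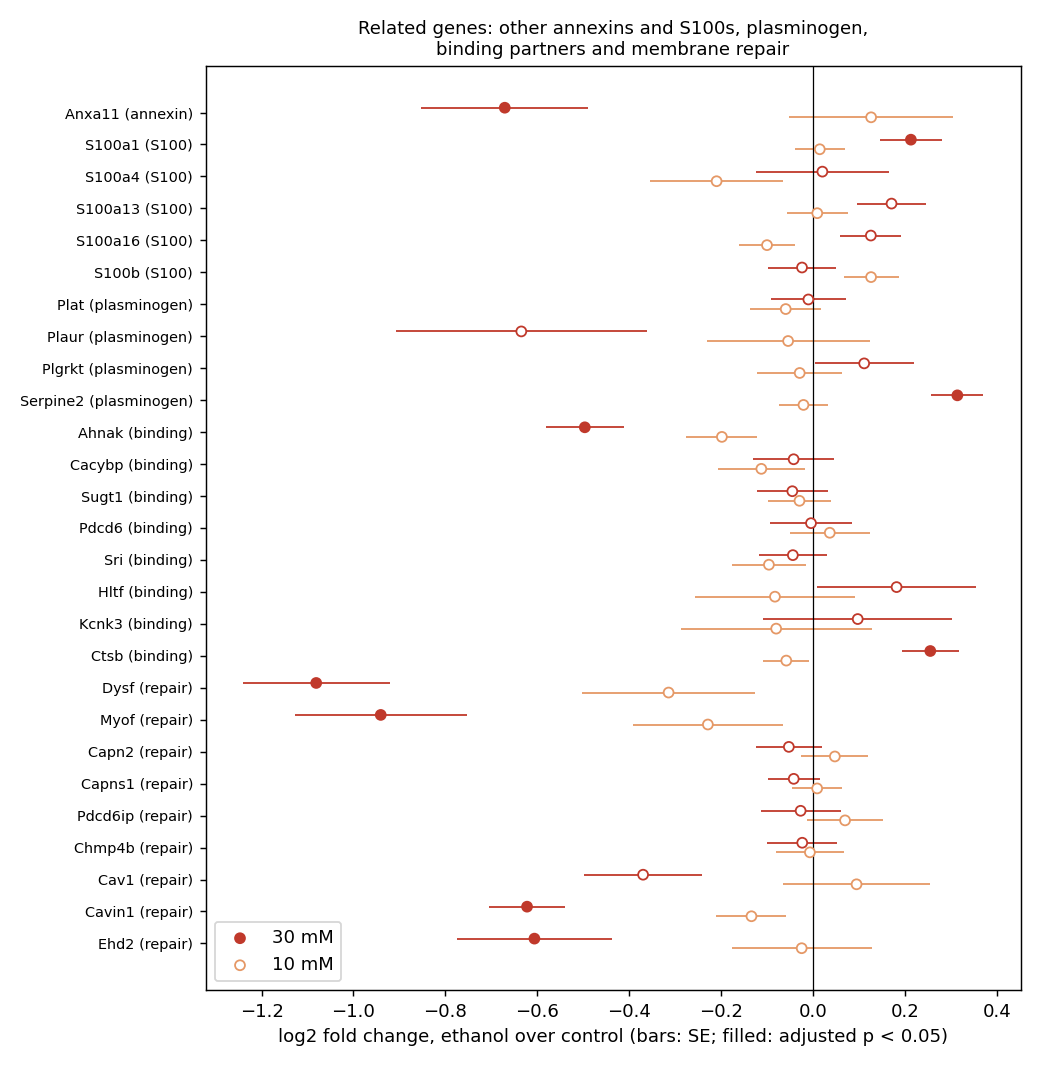
Log2 fold change, ethanol over control, of the 27 related genes tested at 30 mM, at 30 mM (red) and 10 mM (orange). Bars are SE, and filled points passed an adjusted p of 0.05 in edgeR. Of the filled points, Dysf (-1.08), Myof (-0.94), Anxa11 (-0.67) and Cavin1 (-0.62) lie farthest left, and no 10 mM point is filled.

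Genes whose levels followed Anxa2 most closely were ranked by Pearson's r of log2(CPM + 1) over the 24 wells, after subtraction of each experiment's mean, among 13053 genes. The closest were Emd (r = 0.845), Eef1g (r = 0.842), Ndufb1-ps (r = 0.840), Hnrnpa1 (r = 0.839) and Serpinh1 (r = 0.831). Emd encodes emerin of the inner nuclear membrane, Eef1g a subunit of translation elongation factor 1, Hnrnpa1 an RNA-binding protein and Serpinh1 the collagen chaperone HSP47. Their log2 fold changes were from -0.34 to -0.13 at 30 mM and from 0.12 to 0.34 at 10 mM. These genes were picked for following Anxa2, so their changes are given with no test. Of the members S100a10 came nearest (r = 0.661, rank 161), followed by Anxa1 (r = 0.523, rank 805) and S100a11 (r = 0.520, rank 837). Anxa7 was the farthest (r = 0.140, rank 5372). The points share library depth and normalization, the ethanol difference that chose Anxa2 is part of r, and r is given as a description.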

How the data were processed

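The authors deposited 1 table of raw counts per gene (55359 Ensembl mouse genes, 24 wells), read as whole numbers. Per the submitters' processing notes, cutadapt 1.18, STAR and GRCm39 were used. The counter, the annotation, the use of strand and the treatment of PCR copies are not given in the sources used here. Symbols were matched by identifier for 52083 genes.

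Groups came from the labels. Differences were tested with the quasi-likelihood method of edgeR 4.0.16 (R 4.3.3) after TMM normalization and filterByExpr filtering at 10 counts, with Benjamini-Hochberg adjustment over all genes tested. An adjusted p under 0.05 was called. Each concentration was fitted with its own controls, the control groups with each other, and the difference between concentrations over all 24 wells. CPM are counts over TMM-scaled totals. Total counts of 1184609 to 1817028 give a floor of 3 counts, 1.69 to 2.51 CPM, which covers counting error only because PCR copies were not told apart. All 60 pairs of wells within groups differed beyond counting noise (chi-square per degree of freedom 1.07 to 2.88), so no well was a copy of another. Each well was counted as 1 replicate as labelled, and the chi-square cannot tell whether wells came from separate litters. Scripts were tested on simulated counts. Intervals are 95%.

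The members, lists and tests were chosen with earlier results of these data known. Named were all members, list genes that passed in an ethanol comparison or were under 3 counts, and the 5 genes most like Anxa2. Other list genes were named as values only. A single list gene is not reported here and is left out of the counts. No p is given for Anxa2, which is counted with the other members only between control groups in the alternatives. Alternatives were RLE size factors, no filter, DESeq2 1.42.0, limma voom (limma 3.58.1), a joint fit, a replicate block, the log2 total count as covariate and leaving out each well. Leaving out 2 wells together was added after the data were seen. Promoters came from RefSeq (GRCm38.p6) and overlapping genes from GENCODE M21. Since these builds differ from that of the counts, no other coordinates are given.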

Additional observations from a re-analysis of the deposited data

Results flagged for a closer look

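In 40 series of 6 wells (10 genes in 4 groups), the gap of the highest or lowest well to its nearest neighbour was compared with the range of the group, and 1 well stood out, where chance gives about 1 in 20, or 2. This was experiment 1 control replicate 6 for Anxa6, at 214.9 CPM against 259.3 CPM in the next well. The same well had the highest Anxa1 and S100a6. Without it the fall of Anxa6 at 30 mM was -0.34 on the log2 scale (edgeR adjusted p = 0.000603).

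For 6 genes the change at 30 mM differed from that at 10 mM by a test of the difference itself over all 24 wells. The differences on the log2 scale were -1.70 for Anxa1, -0.63 for Anxa3, -0.60 for S100a6, -0.51 for S100a11, -0.40 for S100a10 and -0.37 for Anxa6. All 6 genes had a lower mean at 30 mM than in the controls, and at 10 mM none of them passed by edgeR. Concentration, experiment and incubator cannot be told apart in these differences.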

How the results depend on the processing

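The count of members called was 7 at 30 mM under all 20 alternatives and 8 between controls, Anxa2 included, under all 18. At 10 mM it was 0 under all 19, though DESeq2 gave Anxa1 and Anxa4 no adjusted p there. For the difference between concentrations it was 5 or 6 over 31, with 5 in DESeq2, which gave Anxa1 no adjusted p, and in the 9 fits without 1 well that lost S100a10. Of all genes tested in the main fits, 9.67% passed at 30 mM and 43.6% between controls. At 10 mM 0.657% passed, and for the difference between concentrations 3.28%. Values near 0 that did not pass changed sign, and the cause was not tested. Anxa4 at 10 mM was 0.020 with no low-count filter, 0.0089 in limma voom, 0.0058 in the joint fit, 0.016 with the total count as covariate and -0.062 to 0.077 with 1 well left out. S100a10 at 10 mM was 0.019, 0.0019, 0.0051 and 0.033 under these settings and -0.045 to 0.039 with 1 well left out. Anxa3 between controls was -0.0053 in limma voom, -0.049 with the total count and -0.043 to 0.066 with 1 well left out. Replicate numbers did not pair the wells: same-numbered wells deviated together (r over 0.1) in 1 of 6 pairs of experiment 1 and 0 of 6 of experiment 2. With the number as a replicate block 7, 0 and 6 members were called, and Anxa4 at 10 mM was 0.0017. No scaling moved the median of all genes by over 0.1. The call for Ctsb between concentrations was lost with no low-count filter (adjusted p = 0.282) and without 30 mM replicate 2, 3 or 4, 10 mM replicate 1, 2, 4 or 5, experiment 1 control replicate 1, 2 or 6, or experiment 2 control replicate 2, 3, 5 or 6, and that for Serpine2 with no low-count filter (adjusted p = 0.214) and without experiment 2 control replicate 5 (adjusted p = 0.0528). At these depths Anxa1 and Anxa4, with 7 to 71 and 10 to 33 counts per well, have the widest intervals.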
